A study of Mus musculus with 6 samples.

Results

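MLL fusion targets outside the Hoxa cluster are described here as 10 named genes, Mef2c, Cdk6, Jmjd1c, Arid1b, Mecom, Prdm16, Runx2, Satb1, Zfp521 and Msi2. They were chosen by name, as reported targets of MLL fusions or regulators of leukaemia stem cells, from a table with 47593 gene rows, and all 10 have a row. Total RNA was sequenced from mouse c-Kit+ cells of femur bone marrow that had been infected with the retrovirus MSCVneo carrying either MLL-AF9 E531R, with a substitution in the AF9 portion, or MLL-AF9 WT. All cells went through G418 selection and were then passaged serially in methylcellulose with cytokines, and each fusion was represented by 3 libraries. Every library therefore carries the fusion, and no library of cells without it was analysed here, so the comparison is between the 2 forms of the fusion and not between cells with and without it.

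MLL-AF9 joins the DNA-binding end of the histone methyltransferase MLL to AF9, a chromatin reader that brings transcription elongation factors and the H3K79 methyltransferase DOT1L to genes. Genes bound by the fusion stay transcribed at levels typical of early progenitors, and the Hoxa genes with Meis1 are the best known of them. The genes described here are other reported targets or regulators: transcription factors of stem and progenitor cells (Mef2c, Runx2, Mecom, Prdm16, Satb1, Zfp521), chromatin regulators (Arid1b, Jmjd1c), a cell cycle kinase (Cdk6) and an RNA-binding protein (Msi2).

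The 6 libraries held 14161139 to 33459668 reads assigned to genes, and 18433 to 20420 genes were read at least once in a library. Values are read counts that the authors divided by 1 size factor per library, called normalised read counts below. The 12991 genes whose values averaged 10 or more across libraries were tested with limma on log2(value + 1), and a gene passed at a Benjamini-Hochberg adjusted p under 0.05 over all of them. Each log2 fold change is E531R over WT on that scale, on which changes of low genes come out too small. Nothing in the labels says that replicates were separate cultures or animals, so p-values measure only how far these samples spread, and that spread may be technical. The substitution lies in a fusion carried by the virus, so the level of no mouse gene checks the labels. Kit itself, the receptor used for selection, was high in every library, at 3334, 3332 and 3340 in E531R and 3702, 3520 and 3539 in WT. Its log2 fold change of -0.10 did not pass (limma adjusted p = 0.280), and one of -0.11 did without WT replicate 3 (limma adjusted p = 0.0212).

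WT replicate 3 differed from WT replicates 1 and 2 in a way that touches most of the members. Of the 6 tested members, 5 had their lowest WT value in replicate 3, where 38.5% of all tested genes did. The difference of WT replicate 3 from the mean of WT replicates 1 and 2, on the log2 scale, was -1.46 for Jmjd1c, -0.73 for Mef2c, -0.54 for Msi2, -0.43 for Cdk6, -0.26 for Runx2 and 0.13 for Arid1b, with a median of 0.08 over all tested genes. Only 3.83% of tested genes lay lower than Jmjd1c in that difference, and 13.1% lay lower than Mef2c. Across 12569 tested genes with an annotated transcript, which are not independent replicates, the difference had a Spearman correlation of 0.62 with transcript GC content and of -0.30 with transcript length. With the genes in 3 equal classes by GC content, its median was -0.39 in the lowest class, 0.10 in the middle and 0.32 in the highest. Mef2c, Msi2, Jmjd1c and Cdk6 have GC contents of 40.8%, 42.3%, 43.3% and 45.1% and belong to the lowest class, whereas Runx2 (50.3%) and Arid1b (52.9%) do not. For the members and the related genes named below, the fit without this library is therefore also given where the call changes, and the part of GC content or of this library in those results was not tested beyond those values.

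**Figure D1:**
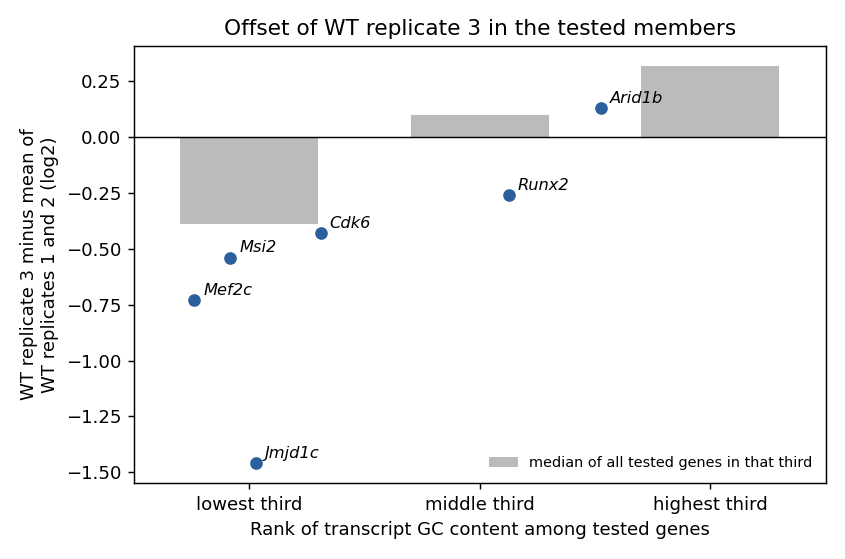
The x axis ranks transcript GC content among tested genes, in 3 equal classes; the y axis is the log2 difference of WT replicate 3 from the mean of WT replicates 1 and 2. Grey bars are medians of all tested genes in each class (-0.39, 0.10 and 0.32) and points are the 6 tested members, from Jmjd1c at -1.46 to Arid1b at 0.13.

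Of the 10 genes, 6 could be tested, 3 had reads but lay under the minimum mean, and Zfp521 had no read in any library. In E531R cells Mef2c rose and Arid1b fell, 2 of 6 tested members, where 19.9% of all tested genes passed, 10.4% higher and 9.53% lower. The median log2 fold change of the 6 tested members was -0.09, and that of all tested genes was 0.01. The 3 E531R values lay entirely above or below the 3 WT values in 2 of the 6 tested members, where 44.0% of all tested genes were separate, 21.2% with E531R above WT and 22.8% below. Over the 9 members with any read the groups were separate in 5, with E531R above WT in 2 and below in 3, where 29.2% of all genes with a read were separate, 14.5% above and 14.8% below. In cells measured in bulk, fewer cells of a type and less RNA per cell cannot be told apart, which holds for every difference below.

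Markers of other cell types also differed between the groups, and their values stand beside every difference described below. Over all tested genes 10.4% were higher and 9.53% lower. Summed levels of 8 neutrophil markers were 67370 to 74910 in E531R and 6122 to 8358 in WT, and 8 of 8 were higher. Of 8 monocyte and macrophage markers 6 were higher and 1 lower, with sums of 34210 to 37790 in E531R and 27670 to 32890 in WT. Most of that sum was Ly6c2, which did not pass (log2 fold change -0.01; limma adjusted p = 0.979). It was 0.13 and passed without WT replicate 3 (limma adjusted p = 0.0215). The 6 higher markers had log2 fold changes from 1.54 for Cx3cr1 to 3.25 for Mpeg1, and Ccr2 was lower at -2.44. Cx3cr1 passed in 2 of the 6 fits that left out a library. Megakaryocyte markers, of a lineage in which Mecom and Runx1 are active, summed to 412 to 438 in E531R and 97.4 to 129 in WT, and 2 of 3 tested markers were higher. Most of that sum was Vwf, at 355 ± 23.0 in E531R and 85.9 ± 14.5 in WT (SD, n = 3 each). Pf4 was the other tested marker that was higher, and Gp1ba did not pass (limma adjusted p = 0.0967). Under the minimum mean, Itga2b had 21 reads in E531R and 15 in WT, Gp9 had 50 and 11, and Ppbp had 4 and 0. Stem and early progenitor markers summed to 4357 to 4473 in E531R and 4063 to 4281 in WT, with 2 of 5 tested markers higher and 1 lower.

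B and T cell markers were low. B cell markers, of a lineage in which Mef2c, Satb1 and Zfp521 are known to act, summed to 63.3 to 74.4 in E531R and 86.2 to 117 in WT with Ebf1 at 0, and T cell markers summed to 45.8 to 59.4 in E531R and 47.1 to 51.1 in WT with Cd3e and Cd8a at 0. Plasmacytoid dendritic cell markers summed to 2340 to 2436 in E531R and 2399 to 2791 in WT, nearly all from Bst2 and Tcf4. Ly6d was at 0, Siglech had 1 read in E531R and 0 in WT, and Ccr9 had 1 and 2. Mast cell and basophil markers summed to 151 to 177 in E531R and 169 to 266 in WT with Fcer1a and Prss34 at 0. Erythroid markers summed to 19.5 to 25.3 in E531R and 22.4 to 23.0 in WT, and 4 of 7, among them both alpha globin genes, were at 0. Endothelial markers summed to 1404 to 1520 in E531R and 5448 to 6288 in WT, nearly all from Pecam1, with Emcn at 0. The part of a changed mix of cells in the differences of the 10 genes was not tested.

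Per length of exon, the order of the members' levels was headed by Cdk6 in both groups. In RPKM, recovered reads scaled to exon length and library size, Cdk6 averaged 44.6 ± 1.61 in E531R and 49.5 ± 9.72 in WT (SD, n = 3 each). In E531R libraries Runx2 followed with 11.8 ± 0.666, Arid1b with 10.5 ± 0.569, Jmjd1c with 9.80 ± 0.563, Mef2c with 8.77 ± 0.398 and Msi2 with 3.96 ± 0.316. In WT libraries the order was Arid1b with 16.5 ± 0.300, Runx2 with 12.6 ± 1.65, Jmjd1c with 9.71 ± 4.75, Msi2 with 5.49 ± 1.28 and Mef2c with 4.95 ± 1.46. The ranges of Runx2, Arid1b, Jmjd1c and Mef2c met or overlapped from one to the next in E531R, as did those of Runx2, Jmjd1c, Msi2 and Mef2c in WT, where each overlap came from the low values of WT replicate 3. Within every single WT library the order was the same, and within E531R libraries it was the same apart from Arid1b and Jmjd1c at the same rounded 10.3 RPKM in replicate 2. Cdk6 lay apart from the next gene in both groups, Msi2 in E531R and Arid1b in WT. By normalised read count every one of these 6 genes lay in the upper part of the tested genes in every library: the lowest percentile was 57.5 for Msi2 and 97.9 for Cdk6.

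**Figure D2:**
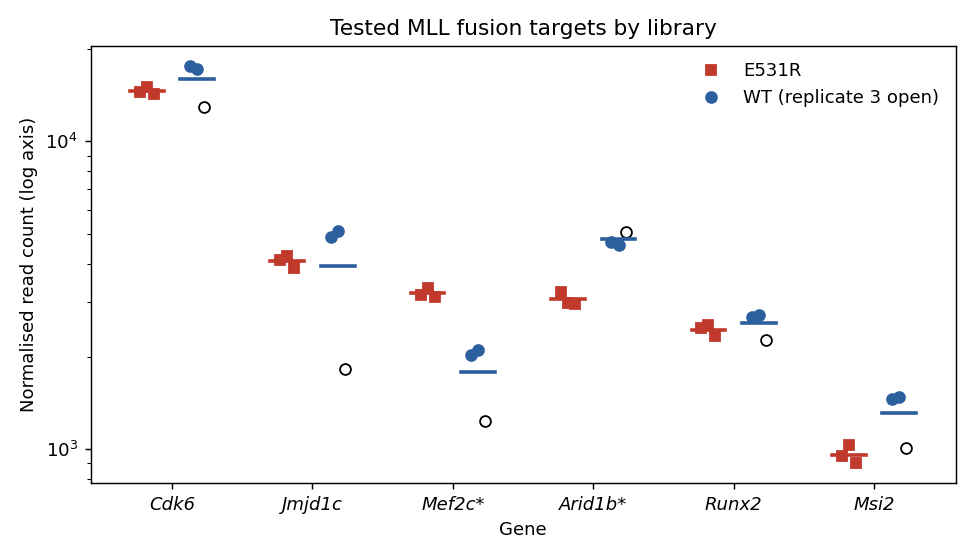
Normalised read counts of the 6 tested genes on a log y axis, with E531R libraries as red squares left of WT libraries as blue circles; the open circle is WT replicate 3 and lines are group means. Stars mark the 2 genes past the limma threshold: Mef2c, where the E531R values of 3126 to 3345 all lie above the WT values, and Arid1b, where those of 2974 to 3250 all lie below.

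Mef2c (chromosome 13, 83504034 to 83667080, plus strand, GRCm38) encodes a MADS-box transcription factor of myeloid and lymphoid progenitors. Its normalised read counts were 3173, 3345 and 3126 in E531R libraries, against 2023, 2094 and 1238 in WT libraries. Every E531R value lay above every WT value, and the lowest WT value was that of replicate 3. The means were 3215 ± 115 in E531R and 1785 ± 475 in WT (SD, n = 3 each), a ratio of 1.80. The log2 fold change was 0.89 (SE 0.197; limma adjusted p = 0.0202). Without E531R replicate 1, 2 or 3 the call was lost, while the log2 fold change was 0.90, 0.86 and 0.91 (adjusted p of limma 0.0756, 0.0843 and 0.0756). Without WT replicate 3 the log2 fold change was smaller, 0.64, and passed (limma adjusted p = 2.06e-09). It was also 0.64 after the removal of a trend with GC content and length (limma adjusted p = 4.75e-05). In the authors' deposited table Mef2c had a log2 fold change of 0.80 and an adjusted p of 0.000192, of DESeq2 by the file headers.

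Mef2c took a larger share of the MEF2 family in E531R cells. Per length of exon, Mef2c made up 31.2%, 33.0% and 32.3% of the summed level of Mef2a, Mef2c and Mef2d in E531R libraries, against 24.8%, 25.8% and 16.0% in WT libraries, and Mef2b had no read. The groups did not overlap in that share. Mef2a and Mef2d did not pass the test, at log2 fold changes of 0.23 and 0.11 (adjusted p of limma 0.405 and 0.380). Among the class IIa histone deacetylases, which bind MEF2 factors and repress their targets, Hdac4 was higher (log2 fold change 0.58; limma adjusted p = 0.00172) and Hdac7 was lower (-0.66; limma adjusted p = 0.00724). Hdac4 averaged 1105 ± 53.4 in E531R and 737 ± 28.9 in WT, and Hdac7 averaged 530 ± 58.6 in E531R and 835 ± 78.5 in WT (SD, n = 3 each). Both passed in each of the 6 fits that left out a library. Hdac5 and Hdac9 did not pass (limma adjusted p = 0.690 and 0.0737). Of the 7 tested genes of this list 2 rose and 1 fell, where 10.4% of all tested genes rose and 9.53% fell. The median log2 fold change was 0.23, against 0.01 over all tested genes. Leaving out WT replicate 3 gave 4 higher and 1 lower, where 24.3% of tested genes were higher and 23.1% lower, and the 2 added were Hdac9 at 0.99 and Mef2d at 0.18 on the log2 scale (limma adjusted p = 0.0169 and 0.00259).

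The gene with the most similar profile to Mef2c over the 6 libraries was Dock10, a guanine nucleotide exchange factor of blood cells. Its values were 4497, 4623 and 4439 in E531R and 3007, 2977 and 1715 in WT. The root mean square difference of the 2 centred profiles was 0.0347 on the log2 scale, the smallest among 9397 genes. Dock10 rose by 0.86 on the log2 scale (limma adjusted p = 0.0306), and its lowest WT value was also that of replicate 3. Like that of Mef2c, its call was lost without any E531R library (limma adjusted p up to 0.110). Dock10 was picked for its match to Mef2c over these same 6 libraries, so these likenesses follow from the choice and are a description.

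The 250 bases before the most upstream of 3 RefSeq starts of Mef2c (GRCm38.p6) are shown because this was the tested member that rose, and because they hold almost no CG pairs, the sequence that the CXXC domain of MLL binds when unmethylated. CG pairs are in capitals.
Mef2c (chr13:83503784-83504033, plus strand): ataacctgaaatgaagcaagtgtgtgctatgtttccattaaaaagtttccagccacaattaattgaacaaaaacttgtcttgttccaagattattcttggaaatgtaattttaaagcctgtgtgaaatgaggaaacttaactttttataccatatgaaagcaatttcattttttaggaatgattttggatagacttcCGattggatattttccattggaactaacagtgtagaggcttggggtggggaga
It holds 1 CG pair, and 8.27% of all promoters held fewer. Over the 9 members found in the RefSeq table the median was 22 CG pairs, against 6 over all 27025 promoters and 16 over the 9246 promoters of tested genes. The count was 40 for Jmjd1c, 37 for Arid1b, 29 for Msi2, 22 for Cdk6, 22 for Prdm16, 14 for Mecom, 5 for Satb1 and 0 for Runx2. The windows of Arid1b, Msi2, Cdk6, Mecom and Runx2 partly overlap annotated exons of the genes themselves. The longest unbroken stretch of each window outside those exons holds 15 CG pairs in 115 bases, 15 in 174, 13 in 104, 11 in 187 and 0 in 80, in that order. Those of Msi2 and Cdk6 leave out further bases of the window that lie outside exons. The ETS core GGAAGT, searched on both strands, was found in the Mef2c window alone among the 9, and 19.9% of all promoters hold it.

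Arid1b (chromosome 17, 4994332 to 5347656, plus strand) encodes a DNA-binding subunit of the BAF chromatin remodelling complex, which holds either ARID1A or ARID1B. Its normalised read counts were 3250, 2988 and 2974 in E531R libraries, against 4714, 4612 and 5095 in WT libraries. The E531R values all lay below the WT values, and WT replicate 3 was here the highest of its group. The log2 fold change was -0.65 (SE 0.073; limma adjusted p = 0.00103). It passed the threshold under each of 19 alternative settings, and leaving out 1 library in turn gave log2 fold changes between -0.69 and -0.60 (limma adjusted p from 6.62e-09 to 0.0109). The authors' deposited table gave a log2 fold change of -0.63 with an adjusted p of 1.74e-07.

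Arid1a, the alternative subunit, had 10600 ± 511 in E531R and 10880 ± 446 in WT (SD, n = 3 each) and did not pass the test (log2 fold change -0.04; limma adjusted p = 0.744). Per length of exon, Arid1b made up 21.3%, 20.1% and 21.3% of the summed level of Arid1a and Arid1b in E531R libraries, against 27.7%, 28.8% and 29.6% in WT libraries. The groups were separate, and this share did not single out WT replicate 3. Of 25 tested subunits of the BAF and PBAF complexes, Arid1b fell and 2 rose, the ATPase Smarca2 (log2 fold change 0.52) and the PBAF subunit Phf10 (0.33), with limma adjusted p = 0.0443 and 0.0484. The call of Smarca2 was lost in 4 and that of Phf10 in 5 of the 6 fits that left out a library, the fits without E531R replicates 1, 2 or 3 and without WT replicate 2 for both, and without WT replicate 1 for Phf10. Over all tested genes 10.4% rose and 9.53% fell. The median log2 fold change of the 25 subunits was -0.07, against 0.01 over all tested genes. With WT replicate 3 left out, 7 were higher and 8 lower, where 24.3% of tested genes were higher and 23.1% lower.

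The profile most similar to that of Arid1b was Elk3, an ETS-domain transcription factor, with 663, 636 and 616 in E531R and 971, 962 and 1039 in WT. The root mean square difference was 0.0218 on the log2 scale over the 6 libraries. Elk3 fell by 0.63 on that scale (limma adjusted p = 0.00111) and passed whichever library was left out. It was picked for its match to Arid1b over these same 6 libraries, so that likeness follows from the choice as well.

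Jmjd1c (chromosome 10, 67096125 to 67256326, plus strand) encodes a Jumonji-domain protein of the KDM3 histone demethylase family. It had 4108, 4247 and 3866 in E531R libraries, against 4897, 5118 and 1816 in WT libraries. The E531R values lay between WT replicate 3 and the other WT libraries, so the groups overlapped. The log2 fold change was 0.19 (SE 0.379; limma adjusted p = 0.755), the largest standard error of the 6 tested members. The direction turned without WT replicate 3, where the log2 fold change was -0.30 and passed (limma adjusted p = 2.39e-05). When a trend with GC content and length was removed from each library, all 6 kept, it was 0.02 (limma adjusted p = 0.946). No direction is given for Jmjd1c for that reason.

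Within the KDM3 family Jmjd1c made up 36.0%, 36.7% and 36.3% of the summed level per length in E531R libraries, against 41.8%, 43.7% and 23.0% in WT libraries. Kdm3a and Kdm3b, the other widely expressed members, did not pass (log2 fold changes 0.24 and 0.10; limma adjusted p = 0.314 and 0.362). Hr, the hairless corepressor, was higher at a low level, with 39.6, 40.9 and 60.4 in E531R and 19.2, 10.3 and 22.0 in WT (log2 fold change 1.44; limma adjusted p = 0.0213). That call was lost without any of the 3 E531R libraries (limma adjusted p up to 0.0937). Reep3, which overlaps Jmjd1c on the opposite strand, had a log2 fold change of 0.08 (limma adjusted p = 0.537). Whether the counting used strand is not stated, so reads of such pairs cannot be told apart.

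Cdk6 (chromosome 5, 3341485 to 3531008, plus strand) encodes a kinase that pairs with D-type cyclins and phosphorylates RB proteins on entry into S phase. It had 14426, 14974 and 14213 in E531R libraries, against 17606, 17240 and 12909 in WT libraries. WT replicate 3 lay below all E531R libraries and the other WT libraries above them. The log2 fold change was -0.12 (SE 0.128) and did not pass (limma adjusted p = 0.561). It was -0.26 and passed without WT replicate 3 (limma adjusted p = 2.23e-05), where 47.4% of all tested genes passed. After removal of a trend with GC content and length from each library it was -0.21 and passed as well (limma adjusted p = 0.0165), where 30.9% of all tested genes did.

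The 3 D cyclins and the INK4 inhibitor Cdkn2d rose in E531R cells. Of 11 tested genes of the list of CDK4/6, D cyclins, INK4 inhibitors and RB proteins, 4 rose and 0 fell, where 10.4% of all tested genes rose and 9.53% fell. The median log2 fold change was 0.39, against 0.01 over all tested genes. Ccnd1, cyclin D1, was low in WT and had 61.2, 53.5 and 69.1 in E531R, against 4.79, 8.04 and 7.09 in WT (log2 fold change 3.04; limma adjusted p = 0.000216). Its groups lay far apart, and those of the other 3 genes did not overlap either. Ccnd2 averaged 6426 ± 201 in E531R and 4919 ± 123 in WT (SD, n = 3 each; a change of 0.39 on the log2 scale; limma adjusted p = 0.00543). Ccnd3 averaged 7833 ± 104 in E531R and 5171 ± 1037 in WT (SD, n = 3 each; a change of 0.62 on the log2 scale; limma adjusted p = 0.0193). Cdkn2d, which binds and inhibits CDK4 and CDK6, averaged 933 ± 25.6 in E531R and 612 ± 81.6 in WT (SD, n = 3 each; a change of 0.61 on the log2 scale; limma adjusted p = 0.00720). Ccnd1, Ccnd2 and Cdkn2d passed in all 6 fits that left out a library. The call of Ccnd3 was lost when any library other than WT replicate 3 was left out (limma adjusted p up to 0.0815). Cdk4 had a log2 fold change of -0.36 and did not pass (limma adjusted p = 0.0783). It was -0.23 and passed with WT replicate 3 left out (limma adjusted p = 0.000177), and the list then had 7 higher and 2 lower genes, where 24.3% of tested genes were higher and 23.1% lower.

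**Figure D3:**
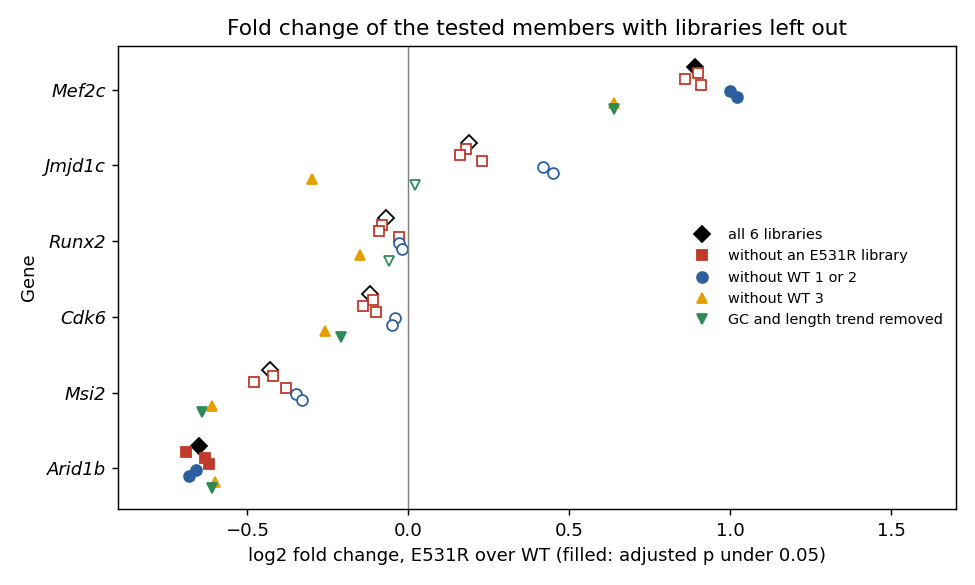
Log2 fold changes of E531R over WT (x axis) for the 6 tested members (rows), with all libraries, with libraries left out and with a GC and length trend removed; filled symbols passed the limma threshold and open ones did not. Arid1b stays between -0.69 and -0.60, Mef2c between 0.64 and 1.02, and Jmjd1c runs from -0.30 without WT replicate 3 to 0.45.

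Runx2 (chromosome 17, 44495987 to 44814797, minus strand) encodes a Runt-domain transcription factor best known for bone formation. It had 2468, 2528 and 2325 in E531R libraries, against 2687, 2737 and 2271 in WT libraries, and the groups overlapped only through WT replicate 3. The log2 fold change was -0.07 (SE 0.091; limma adjusted p = 0.640). It was -0.15 and passed without WT replicate 3 (limma adjusted p = 0.00785). Summed levels of 6 osteoblast and stroma markers were 22.2 to 28.2 in E531R and 1.60 to 14.9 in WT, and Bglap, the defining osteocalcin gene, and Cxcl12 were at 0 in every library. Runx2 made up 29.9%, 31.2% and 29.8% of the RUNX family level per length in E531R, against 30.2%, 32.4% and 25.4% in WT.

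Of the other Runt factors, Runx1, needed for blood stem cell formation, rose, with 2049 ± 10.4 in E531R and 1413 ± 40.1 in WT (SD, n = 3 each; a change of 0.54 on the log2 scale; limma adjusted p = 0.00107). It passed whichever library was left out. Runx3 fell (log2 fold change -0.32; limma adjusted p = 0.0462), and that call was lost without any E531R library or without WT replicate 1 (limma adjusted p up to 0.171). Cbfb, the shared partner of Runt factors, had a log2 fold change of 0.23 (limma adjusted p = 0.0525), and of 0.19 without WT replicate 3, which passed (limma adjusted p = 0.000353). Of 6 tested genes of this list 1 rose and 1 fell, where 10.4% of all tested genes rose and 9.53% fell. With WT replicate 3 left out 2 were higher and 3 lower, where 24.3% of tested genes were higher and 23.1% lower. Supt3 and Runx2os1, which overlap Runx2 on the opposite strand, had means of 255 and 35.6 in E531R and 278 and 43.4 in WT, and did not pass (limma adjusted p = 0.637 and 0.401).

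Msi2 (chromosome 11, 88339382 to 88718513, minus strand) encodes Musashi 2, an RNA-binding translational regulator of blood stem cells. It had 951, 1033 and 899 in E531R libraries, against 1453, 1478 and 1008 in WT libraries. E531R replicate 2 lay just above WT replicate 3, and the other E531R values lay below all WT values. The log2 fold change was -0.43 (SE 0.157) and did not pass (limma adjusted p = 0.107). Without WT replicate 3 it was -0.61 and passed (limma adjusted p = 1.63e-07). After removal of the GC and length trend it was -0.64 and passed (limma adjusted p = 0.000205). Msi1 averaged 2.73 in E531R and 5.47 in WT, and Msi2 made up 98.8% to 99.8% of the summed Musashi level per length in E531R and 99.2% to 99.4% in WT.

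Among 8 tested genes of the list of Musashi and other RNA-binding regulators, 1 rose and 1 fell. Over all tested genes 10.4% rose and 9.53% fell. Lin28b, which blocks maturation of let-7 microRNAs in fetal blood progenitors, had 486, 489 and 558 in E531R, against 196, 146 and 71.6 in WT (log2 fold change 1.99; limma adjusted p = 0.00657). Its groups were far apart, and it passed whichever library was left out. Its paralogue Lin28a fell by 0.28 on the log2 scale (limma adjusted p = 0.0290), a call kept only without WT replicate 3 among the 6 fits that left out a library. Igf2bp3 did not pass (log2 fold change 0.18; limma adjusted p = 0.107), but passed at 0.14 when WT replicate 3 was left out (limma adjusted p = 0.00740). The list then had 3 higher and 3 lower genes, where 24.3% of tested genes were higher and 23.1% lower.

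Mecom and Prdm16 encode PR-domain zinc finger proteins of one subfamily that maintain blood stem cells, and Satb1 encodes a chromatin-organising factor of lymphoid and stem cells. These 3 genes were read so sparsely that they were not in the test of genes with a mean of at least 10, and in each the reads came from 1 group only. Mecom (chromosome 3, 29951296 to 30548008, minus strand) had 15, 12 and 14 reads in E531R libraries and 0, 0 and 0 in WT libraries. That is 41 of 81452701 E531R reads, with an exact 95% Poisson interval of 29.4 to 55.6 for counting error only, against 0 of 64449035 WT reads. Its normalised read count averaged 11.9 ± 1.62 in E531R (SD, n = 3), 11.0 times a floor of 3 reads over the WT group. That ratio leaves out the counting error of the mean, so it is not a lower limit.

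Prdm16 and Satb1 showed the reverse pattern. Prdm16 (chromosome 4, 154316125 to 154636873, minus strand) had 0, 0 and 0 reads in E531R libraries and 10, 16 and 17 in WT libraries. The 43 WT reads have an interval of 31.1 to 57.9, and the normalised read count averaged 15.9 ± 2.49 in WT (SD, n = 3). That mean was 18.5 times a floor of 3 reads over the E531R group. Satb1 (chromosome 17, 51736187 to 51833290, minus strand) had 0, 0 and 0 reads in E531R libraries and 6, 13 and 17 in WT libraries. Its 36 WT reads have an interval of 25.2 to 49.8, and the WT mean was 12.6 ± 2.75 (SD, n = 3), 14.7 times the same floor. As for Mecom, neither ratio is a lower limit. WT replicates 1 and 2 hold reads of both genes, so neither pattern rests on WT replicate 3.

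When all 24149 genes with a read were fitted by edgeR on the recovered reads, an alternative added after these values were seen, Mecom was higher (edgeR adjusted p = 0.000537) and Prdm16 and Satb1 were lower (edgeR adjusted p = 0.000134 and 0.000318), where 11.4% of those genes passed, 5.96% higher and 5.4% lower. Limma with no minimum mean gave adjusted p = 0.000227 for Mecom, 0.000133 for Prdm16 and 0.000255 for Satb1, where 11.2% passed, 5.88% higher and 5.35% lower. In the authors' deposited table the log2 fold changes, which DESeq2 computed by the file headers, were 1.61 for Mecom, -2.03 for Prdm16 and -1.77 for Satb1 (adjusted p = 0.000198, 1.31e-06 and 3.2e-05). In all, 14 genes, 0.058% of those with a read, had 0 reads in every WT library and at least 6 in every E531R library. The reverse held for 35 genes, 0.145%. The minimum of 6 is the lowest count these 3 members reached, so they meet it by choice. Both shares are over genes of all depths, with none taken among genes read as sparsely. They are therefore a description and do not show how rare such a pattern is. All 3 levels were far under those of the 6 tested members: Mecom averaged 0.0411 RPKM in E531R, and Prdm16 and Satb1 averaged 0.0742 and 0.0287 RPKM in WT. Whether few cells or all cells held these transcripts cannot be told apart.

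**Figure D4:**
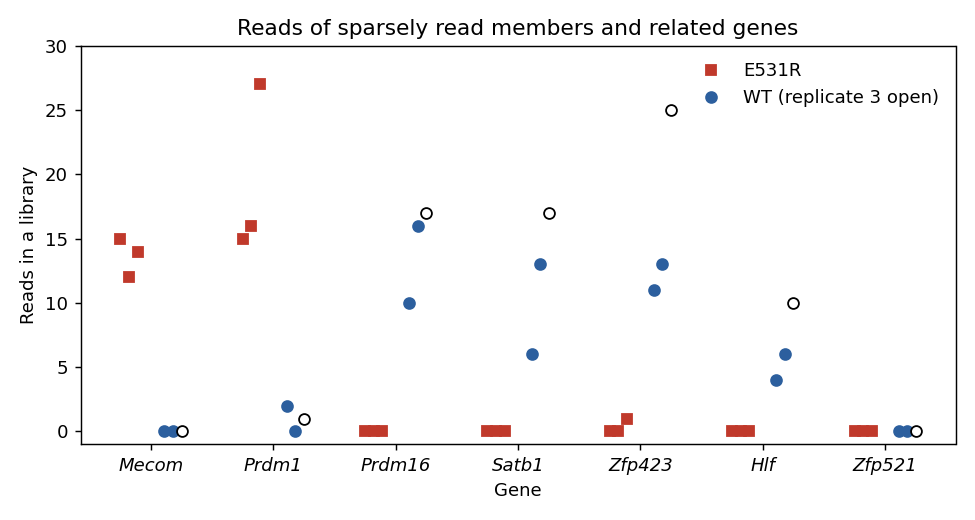
Recovered reads per library (y axis, linear) of the sparsely read members Mecom, Prdm16, Satb1 and Zfp521 and of the related genes Prdm1, Zfp423 and Hlf; E531R libraries are red squares, left of WT libraries as blue circles, with WT replicate 3 open. Mecom has 12 to 15 reads in E531R libraries and 0 in WT libraries, and Prdm16 and Satb1 have 0 in E531R libraries and 6 to 17 in WT libraries.

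The stretches before the most upstream RefSeq starts of these 3 genes (GRCm38.p6; 2 starts are listed for Mecom, 1 for Prdm16 and 5 for Satb1) are shown because reads of each came from 1 group only; CG pairs are in capitals. That of Mecom is limited to bases outside its own annotated exons, and that of Satb1 overlaps Gm6934, a provisional gene on the opposite strand.
Mecom (chr3:30509823-30510009, minus strand): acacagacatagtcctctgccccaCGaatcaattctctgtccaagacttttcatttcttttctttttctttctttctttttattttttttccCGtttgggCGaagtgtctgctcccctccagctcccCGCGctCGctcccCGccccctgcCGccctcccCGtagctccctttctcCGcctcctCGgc
Prdm16 (chr4:154636874-154637123, minus strand): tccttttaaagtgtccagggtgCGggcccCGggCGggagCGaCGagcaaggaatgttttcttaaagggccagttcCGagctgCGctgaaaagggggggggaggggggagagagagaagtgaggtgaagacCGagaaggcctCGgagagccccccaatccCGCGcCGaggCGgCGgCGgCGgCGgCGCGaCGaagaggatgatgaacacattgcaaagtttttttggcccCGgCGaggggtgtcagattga
Satb1 (chr17:51833291-51833540, minus strand): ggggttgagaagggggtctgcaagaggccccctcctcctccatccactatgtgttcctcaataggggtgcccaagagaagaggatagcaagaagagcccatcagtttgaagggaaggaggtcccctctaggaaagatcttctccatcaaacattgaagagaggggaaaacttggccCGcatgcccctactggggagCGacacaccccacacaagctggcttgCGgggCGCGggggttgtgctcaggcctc
Prdm16 holds 22 CG pairs in 250 bases and Satb1 holds 5, and the 187 bases of Mecom hold 11. Other motifs were searched on both strands. The MEIS motif TGACAG was in 0 of the 9 member windows, and 15.9% of all promoters hold it. The motif of HOX factors with PBX, TGATTTAT, was in 0 of the 9 and in 0.91% of all promoters. The motif AGATAA, bound by GATA factors, was in 0 of the 9 and in 10.2% of all promoters. The E box CACGTG was in 2 of the 9, Cdk6 and Msi2, and in 6.04% of all promoters. The RUNX core TGTGGT was found only in the window of Runx2 among the 9, and in 14.2% of all promoters.

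Annotated genes that overlap Mecom and Prdm16, among them Mecomos on the strand opposite to Mecom, had 0 reads in every library, so no overlapping gene in the table shared their pattern. Gm6934, which overlaps Satb1 on the opposite strand, had values of 1.60 and 1.15 in WT replicates 1 and 2. Each is the value of 1 read, and Gm6934 was at 0 in WT replicate 3 and in every E531R library. Next to Satb1, Tbc1d5 fell by 0.26 on the log2 scale (limma adjusted p = 0.0351), and next to Msi2, Akap1 fell by 0.35 (limma adjusted p = 0.0358). Both calls were lost without any E531R library or without WT replicate 1 (limma adjusted p up to 0.174 for Tbc1d5 and 0.141 for Akap1). Of 9 tested flanking coding genes of the 10 members these 2 were lower and 0 were higher. Over all tested genes 19.9% passed, 9.53% lower and 10.4% higher.

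Of the other PRDM genes, Prdm1 and Prdm4 were higher and Prdm11 lower. Prdm1, the regulator of terminal differentiation also called Blimp1, had 15, 16 and 27 reads in E531R and 2, 0 and 1 in WT (edgeR adjusted p = 0.00192 with no minimum mean). Prdm11 fell, with 309 ± 10.2 in E531R and 522 ± 48.8 in WT (SD, n = 3 each), at a log2 fold change of -0.75 (adjusted p of limma 0.00173), and it passed whichever library was left out. Prdm4 rose by 0.25 (limma adjusted p = 0.0440), a call lost in 5 of the 6 fits that left out a library, the exception being WT replicate 3. Prdm2, Prdm9, Prdm10 and Prdm15 did not pass, and Prdm8 had 0 reads in E531R and 2 in WT. Of 7 tested PRDM genes 1 rose and 2 fell, where 10.4% of all tested genes rose and 9.53% fell. Leaving out WT replicate 3 gave 1 higher and 3 lower, where 24.3% of tested genes were higher and 23.1% lower. Prdm15 then passed the threshold at a log2 fold change of -0.22 (adjusted p of limma 0.0151).

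Among genes related to Satb1, Cux1, a CUT-domain homeobox repressor, fell, with 2603, 2669 and 2574 in E531R against 4083, 3780 and 3823 in WT (log2 fold change -0.57; limma adjusted p = 0.000958). Its E531R values all lay below its WT values, and it passed whichever library was left out. Cux2 had 1 read in E531R and 12 in WT.

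Zfp521, on chromosome 18, encodes a multi-zinc-finger regulator of stem cells and B-lineage commitment. It had 0 of 145901736 reads, and the exact 95% Poisson interval of such a count reaches 3.69 reads, for counting error only. Of all gene rows, 49.3% likewise had 0 reads. Its paralogue Zfp423 had 0, 0 and 1 reads in E531R and 11, 13 and 25 in WT (edgeR adjusted p = 7.95e-05 with no minimum mean). Ebf1, the B-lineage factor that both proteins bind, had 0 reads, as did Ebf2 and Ebf3.

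Other reported MLL fusion targets outside the Hoxa cluster moved in both directions. Of 17 tested genes 2 rose and 3 fell, where 19.9% of all tested genes passed, and the median log2 fold change was 0.02. Id2 rose by 2.92 and Runx1 by 0.54 on the log2 scale, and the log2 fold changes of Eya1 and Flt3 were -3.40 and -2.65 (limma adjusted p from 2.08e-05 to 0.00107 over these 4 genes). All 4 passed whichever library was left out. Meis1 had a log2 fold change of 0.11 and did not pass (limma adjusted p = 0.403). When WT replicate 3 was left out, the list had 4 higher and 6 lower genes, where 47.4% of all tested genes passed.

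Among 15 tested leukaemia stem cell maintenance genes, Cd44 rose, with 6256 ± 24.2 in E531R and 3636 ± 15.5 in WT (SD, n = 3 each; a change of 0.78 on the log2 scale; limma adjusted p = 0.000139). Cd44, the hyaluronan receptor, passed whichever library was left out. Adgrg1 and Kdm1a fell (log2 fold changes -0.40 and -0.22; limma adjusted p = 0.0199 and 0.0466). Both calls were lost without any E531R library or without WT replicate 2, and that of Kdm1a also without WT replicate 1 (limma adjusted p up to 0.0948 for Adgrg1 and 0.198 for Kdm1a). Hlf, a stem cell transcription factor under the minimum mean that was named after its values were seen, had 0, 0 and 0 reads in E531R and 4, 6 and 10 in WT (edgeR adjusted p = 0.00302 with no minimum mean). In all 1 of the 15 rose and 2 fell, where 10.4% of all tested genes rose and 9.53% fell. The fit with WT replicate 3 left out gave 4 higher and 5 lower, where 24.3% of tested genes were higher and 23.1% lower.

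**Figure D5:**
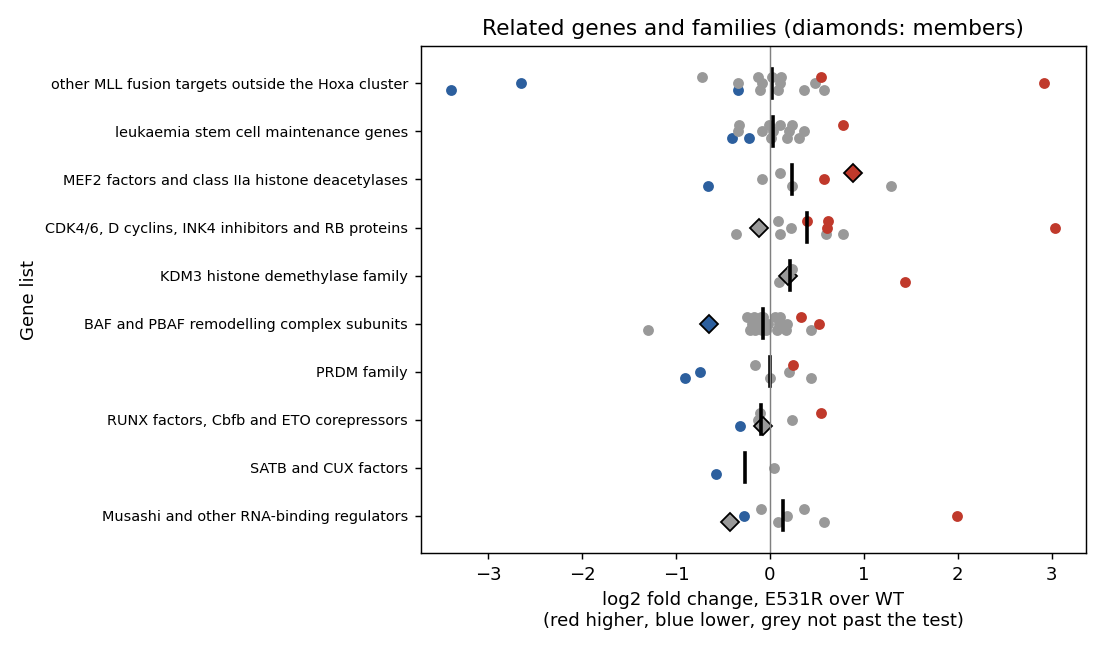
Log2 fold changes of E531R over WT (x axis) of the tested genes in 10 lists of related genes (rows); red and blue points are genes higher and lower past the limma threshold, grey points did not pass, diamonds are members and black bars are list medians. The list of CDK4/6 and its partners has the highest median, 0.39, with Ccnd1 at 3.04, and Eya1 lies lowest of all points at -3.40.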

How the data were processed

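Total RNA was sequenced from 6 libraries, 3 with MLL-AF9 E531R and 3 with MLL-AF9 WT, grouped by title. The submitters' processing notes name HISAT2, featureCounts, DESeq2, FastQC, SAMtools and cutadapt, and build GRCm38; versions, annotation and strand setting are not stated there. The deposited signal values are gene counts that the authors divided by 1 size factor per library. Dividing by the value of 1 read gave whole reads for 100% of values, within 0.001. Per the file headers the authors' columns also hold a DESeq2 log2 fold change with its standard error, a test statistic (a score, not used here) and p-values; that fold change runs from E531R to WT, so its sign was turned. Size factors hide a shift shared by all genes, and genes with near-identical copies or overlaps stay uncertain.

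The test was limma 3.58.1 (R 4.3.3) on log2(value + 1), pseudocount 1, with a mean-variance trend, two-sided and without covariates, for the 12991 genes averaging 10 or more. It was tested on simulated data in which no library deviated as WT replicate 3 does. That simulation cannot show how such a library moves the calls. An exact permutation test of 3 against 3 cannot go below p = 0.1, so none is given. The 10 genes, the 11 lists of related genes and the 11 marker lists were chosen with earlier results of these data known, and list counts are descriptions. Results of 3 list genes are not reported here, though the list counts include them. All members are named; of each list, family relatives of a member and otherwise up to 4 genes with the smallest adjusted p; and for each member that passed, the gene with the most similar profile among those with a mean of at least 100. Other settings tried were pseudocounts 0.5 and 10, a minimum mean of 50 or none, rescaling by TMM or upper quartiles, recovered reads in edgeR 4.0.16, DESeq2 1.42.0 or limma voom, array weights, a replicate block and each library left out. Removal of a GC and length trend (mgcv 1.9.3) and edgeR with no filter were added after the data were seen. Positions, exon lengths and GC content are from GENCODE M21 on GRCm38, matched by symbol for 45250 rows, and promoters from RefSeq on GRCm38.p6. Intervals (95%) and the floor (3 reads) reflect counting error alone, since reads are not independent molecules. Figures were drawn with matplotlib 3.10.9.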

Additional observations from a re-analysis of the deposited data

How the results depend on the processing

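The limma count of genes past the threshold was 2587, and it was 6698 with array weights, 4017 with the GC and length trend removed and 1565 to 6158 when each library was left out in turn, highest without WT replicate 3 and 1565, 1583 and 1631 without E531R replicates 1, 2 and 3. Of the members 2 passed, where 19.9% of all tested genes did. With no filter on low values 5 passed, and 5 with edgeR and no filter (Mef2c, Arid1b, Mecom, Prdm16 and Satb1). Of all genes with a read, 11.2% and 11.4% passed there. With array weights 6 members passed, where 6698 of 12991 tested genes did. With the GC and length trend removed 4 passed, where 30.9% of tested genes did. With a library left out 1 to 6 passed, 1 without each E531R library. The 6 were without WT replicate 3, where 47.4% of tested genes passed. Of the 17 tested other MLL fusion targets 5 passed, with 9 under array weights, 9 with the trend removed and 4 to 10 with a library left out. The same shares of all tested genes stand beside these counts. Jmjd1c turned to -0.25 on the log2 scale with array weights and ranged from -0.30, without WT replicate 3, to 0.45 when libraries were left out. The cause was not tested. Arid1b kept its direction and its call in all 19 alternatives, and Mef2c kept its direction in 19 and its call in 16. Same-numbered libraries of both groups deviated together weakly, with correlations of 0.002, 0.192 and 0.238 over 12991 genes, so the numbers were not taken to pair them; with the replicate block 2241 genes, 2 members and 6 of the other targets passed. With 0 to 43 reads over a group, Mecom, Prdm16 and Satb1 are limited by depth.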
